A study of Mus musculus with 2 samples.

Results

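Genes that regulate chromatin, transcription and stored mRNA in spermatids were examined along their promoters for precipitation by an antibody against CREM. The group holds 9 genes, chosen by name: Brdt, Cdyl, Chd5, Bptf, Jmjd1a (current symbol Kdm3a), Taf7l, Camk4, Papolb and Ybx2. Probes whose gene name on the array was one of these, or a synonym, were collected from a pair of promoter arrays. Of the 9 genes, 6 had probes, with 165 of 474380 probes in all. Brdt and Jmjd1a lay on array 1, and Cdyl, Taf7l, Camk4 and Ybx2 on array 2. Chd5, Bptf and Papolb had no probe under their names or synonyms, so their array signal was not analysed here, and they enter only in the search of promoter letters.

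The material was a pool of germ cells from 5 testes of adult C57BL/6 males, for which the labels name no mutation and no treatment, cross-linked with formaldehyde and sheared. Cy5 marked the DNA pulled down by a CREM antibody (Santa Cruz sc-440), and Cy3 the DNA pulled down by the control antibody, goat IgG. The cells were a mixture of germ cell stages, and the labels name no sort for spermatids. Each array was hybridised 1 time, the 2 arrays hold different probes and no dye was swapped, so there is no replicate, no test across samples and no p-value. Dye and antibody cannot be told apart in any ratio below. The assay measured DNA, so the cell type could not be checked against RNA markers.

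CREM is a leucine zipper transcription factor of the CREB family that binds the cAMP response element. In round spermatids an activator form of CREM drives genes of the haploid phase, and male mice without it stop making sperm at that stage. Spermatids then replace most histones with transition proteins and protamines, and they store many mRNAs for later translation because transcription ends as the nucleus condenses. BRDT, CDYL, CHD5, BPTF and JMJD1A act on that chromatin, TAF7L and the kinase CAMK4 act on transcription, and PAPOLB and YBX2 act on mRNA.

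All values are log2 of the processed CREM signal over the processed IgG signal, centred on the median of each array, so that 1 is 2-fold more CREM and -1 is 2-fold more IgG signal. A window joins 3 adjacent probes, each starting no more than 500 bp from the next, and takes the median of the 3. A gene's highest window was called on the CREM side at 1 or more, and its lowest window on the IgG side at -1 or less, which is the background measured the same way. After filtering, 162 probes of the 6 genes gave 122 windows, of 350287 windows in all. The spread of a single spot, from control probes printed many times, had a median SD of 0.27 on array 1 (18 control probes) and 0.33 on array 2 (21 control probes). On arrays 1 and 2, 77.4% and 78.5% of probes were well above background in the IgG channel, against 96.3% and 95.5% in the CREM channel.

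The sequences of probes from the highest windows called on the CREM side are shown first, because they can be set beside those with the lowest ratios near the start of transcription. Each is the highest probe within the highest window of its gene, 5′ to 3′ on the gene's strand (for Cdyl, on the strand of the array file), at mm9 positions, with each CG dinucleotide in capitals. Only the Ybx2 probe holds a CG, and GC content runs from 33.3% to 43.1%. At Brdt a probe outside the highest window read higher, at 1.56.
Brdt chr5:107759914-107759973, plus strand, log2 ratio 1.26: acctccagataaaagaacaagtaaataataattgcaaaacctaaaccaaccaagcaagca
Cdyl chr13:35751864-35751914, plus strand, log2 ratio 1.90: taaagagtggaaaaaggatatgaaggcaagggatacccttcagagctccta
Jmjd1a chr6:71583764-71583823, minus strand, log2 ratio 2.41: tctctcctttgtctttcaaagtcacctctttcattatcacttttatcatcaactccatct
Taf7l chrX:131008883-131008942, minus strand, log2 ratio 1.87: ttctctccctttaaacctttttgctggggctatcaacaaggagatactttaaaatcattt
Ybx2 chr11:69748361-69748416, plus strand, log2 ratio 2.30: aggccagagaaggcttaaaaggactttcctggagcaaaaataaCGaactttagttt

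Ratios in the 200 bases before the start were not low at each gene. There the Jmjd1a probe read 0.67 with 1 CG, and the Taf7l probe read 1.70 with 2 CG. At Brdt and Ybx2 the lowest probe in the 200 bases before the start held 2 and 6 CG dinucleotides, again in capitals, at a GC content of 60.0% and 68.9%.
Brdt chr5:107760143-107760187, plus strand, log2 ratio -1.77: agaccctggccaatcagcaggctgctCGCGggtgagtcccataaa
Ybx2 chr11:69749285-69749329, plus strand, log2 ratio -2.78: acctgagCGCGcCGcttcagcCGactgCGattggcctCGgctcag

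For the 4 genes with a RefSeq start among their probes, the 250 bases before the first such start are shown (RefSeq, GRCm38.p6), with the letters covered by a used array probe in capitals. These place the measured probes in the promoter. In Brdt the capitals are the last 11 bases of the probe at 1.26 and the probe at -1.77. In Jmjd1a they are 41 of the 45 bases of a probe at -0.07 and 25 bases of a probe at 0.67 that crosses the start. In Taf7l the long stretch is the probe at 1.70, and the last base belongs to the probe at -1.20. In Ybx2 the capitals are the probes at -1.10 and -2.78.
Brdt chr5:107330944-107331193, plus strand: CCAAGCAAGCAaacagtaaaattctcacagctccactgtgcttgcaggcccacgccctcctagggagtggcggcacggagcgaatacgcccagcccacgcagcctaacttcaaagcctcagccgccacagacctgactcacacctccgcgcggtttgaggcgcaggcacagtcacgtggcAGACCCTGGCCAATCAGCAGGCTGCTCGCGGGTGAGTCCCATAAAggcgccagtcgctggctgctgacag
Jmjd1a chr6:71632918-71633167, minus strand: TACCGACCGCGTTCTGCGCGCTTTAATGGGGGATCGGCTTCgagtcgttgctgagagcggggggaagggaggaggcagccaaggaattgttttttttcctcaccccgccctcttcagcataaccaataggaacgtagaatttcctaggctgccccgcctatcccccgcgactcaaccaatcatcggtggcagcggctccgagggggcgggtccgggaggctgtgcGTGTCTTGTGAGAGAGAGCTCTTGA
Taf7l chrX:134476491-134476740, minus strand: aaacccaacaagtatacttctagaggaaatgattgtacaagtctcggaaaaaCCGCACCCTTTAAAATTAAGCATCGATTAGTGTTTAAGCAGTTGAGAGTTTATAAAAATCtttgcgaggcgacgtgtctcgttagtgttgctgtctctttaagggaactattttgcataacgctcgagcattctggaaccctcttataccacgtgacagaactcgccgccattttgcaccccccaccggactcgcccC
Ybx2 chr11:69935649-69935898, plus strand: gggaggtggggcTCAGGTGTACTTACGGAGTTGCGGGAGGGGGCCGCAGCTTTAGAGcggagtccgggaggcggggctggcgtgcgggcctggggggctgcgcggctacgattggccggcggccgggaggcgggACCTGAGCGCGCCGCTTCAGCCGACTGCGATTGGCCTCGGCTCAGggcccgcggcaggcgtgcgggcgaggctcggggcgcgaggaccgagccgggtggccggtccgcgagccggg

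Of the 6 measured genes, 5 had a highest window called on the CREM side (Brdt, Cdyl, Jmjd1a, Taf7l and Ybx2) and Camk4 did not, against 34.5% of the 17318 genes of both arrays. On the IgG side, 4 of the 6 (Brdt, Taf7l, Camk4 and Ybx2) had a called lowest window, against 33.7% of all genes. Brdt, Taf7l and Ybx2 were called on both sides, against 12.1% of all genes. Among genes with 9 to 29 windows, the range of these 6 genes, the shares were 36.2% (CREM side), 32.5% (IgG side) and 11.6% (both sides). The median highest window of the 6 genes was 1.48, against 0.77 for all genes, and the median lowest window was -1.36, against -0.76. Counted by window, 17 of the 122 were at 1 or more and 11 were at -1 or less. Over all windows 5.66% on array 1 and 6.32% on array 2 were at 1 or more, and 4.61% and 4.51% were at -1 or less. Neighbouring windows share probes and are not independent.

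**Figure D1:**
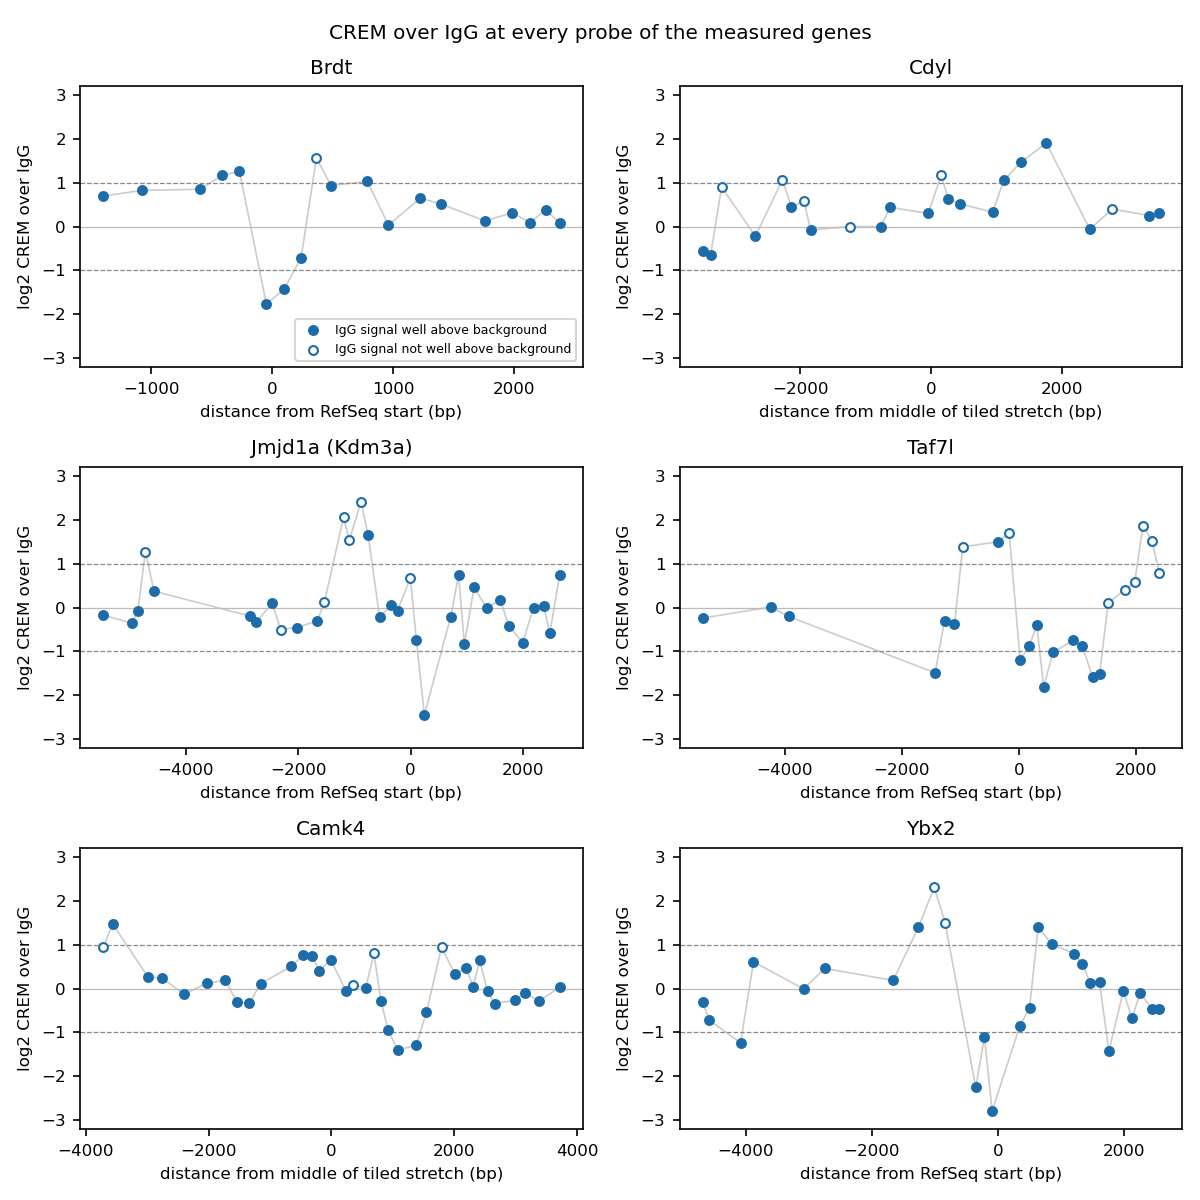
Log2 CREM over IgG (vertical axis) at every used probe of Brdt, Cdyl, Jmjd1a, Taf7l, Camk4 and Ybx2, against distance in bp from the RefSeq start, or from the middle of the tiled stretch for Cdyl and Camk4. Filled points have an IgG signal well above background and open points do not, and dashed lines mark 1 and -1. The highest probe of Jmjd1a (2.41) is an open point upstream of the start, and the lowest probe of Ybx2 (-2.78) is a filled point 94 bp before the start.

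Brdt encodes a testis BET bromodomain protein that binds acetylated histones. Its 19 probes span chr5:107758794-107762616, and 16 of them were above 0. Going toward the start, probes at 414 bp and 270 bp upstream read 1.16 and 1.26, and the highest window (chr5:107759595-107759973, probes 0.85 to 1.26) had a value of 1.16. All 3 of its probes were well above background in the IgG channel, with IgG signals of 841, 771 and 589 against CREM signals of 1540, 1758 and 1430. Of all genes, 26.0% had a higher highest window. The ratio then reversed at the start, where the probe 48 bp upstream read -1.77 (IgG 6273, CREM 1871) and the next, 100 bp downstream, read -1.42. The IgG-side window (chr5:107760143-107760474) had a value of -1.42, with 16.0% of genes lower. With normexp background correction the highest window was 0.79 and the lowest -0.16, so neither was called. With windows of 5 probes the highest was 0.93 and the lowest -0.71, again not called. With the authors' deposited values the lowest window was -0.97 and was not called, whereas the highest was 1.08 and was called. Further downstream the ratio rose again to 1.03 in a window at chr5:107760553-107761026, with probes from 0.93 to 1.56. The probe at 1.56 had an IgG signal of 67.2, not well above background, and a CREM signal of 202. The brightest probe of the locus, 960 bp downstream, read 0.04, with an IgG signal of 112631 and a CREM signal of 117370.

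Cdyl encodes a chromodomain protein that acts as a corepressor and reads methylated histone H3. Its 23 probes span chr13:35746605-35753644, and no RefSeq start could be placed among them. The highest window (chr13:35751212-35751914) had a value of 1.46, from probes of 1.05, 1.46 and 1.90. In both channels these 3 probes were well above background, with CREM signals of 1416, 6565 and 4002 against IgG signals of 674, 2356 and 1058. The CREM signals all stood above the array's CREM median of 781, and 2 of the 3 IgG signals stood above its IgG median of 779. The called stretch holds 4 probes between gaps of more than 500 bp, so no window of 5 probes could form there. The highest window of 5 probes in Cdyl, 0.44, lay elsewhere in the locus and was not called. That setting therefore did not measure the called stretch again. Of all genes, 15.1% had a higher highest window. The remaining 2 probes at 1 or more, with IgG signals of 202 and 83.2, were not well above background in the IgG channel. The lowest window of Cdyl was -0.56 and no probe was at -1 or less.

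Jmjd1a encodes a demethylase of histone H3 lysine 9 that is required for expression of transition protein and protamine genes. Its 34 used probes span chr6:71580228-71588404. The highest window of the whole group lay upstream of its first RefSeq start, at chr6:71583764-71584132, with a value of 2.06 and probes of 2.41, 1.53 and 2.06 at 882, 1090 and 1192 bp upstream. The next probe, 754 bp upstream, read 1.65, and 4 windows of the locus were at 1 or more. Of all genes, 4.75% had a higher highest window. The IgG signals of the window's 3 probes were 167, 122 and 71.5, and none was well above background. The CREM signals there were 903, 359 and 303, of which 2 lay below the array's CREM median of 790. The probe 754 bp upstream, in contrast, had an IgG signal of 700 and a CREM signal of 2231, both well above background. A filter for probes well above background in both channels left out the 3 probes of the highest window, so it did not measure that window again. The highest window of Jmjd1a was then 0.54, at chr6:71581752-71582086, downstream of the start. With normexp background correction the highest window of Jmjd1a was 0.23. Neither setting gave Jmjd1a a called window on the CREM side. Jmjd1a had no called window on the IgG side, with a lowest window of -0.73. A single probe 246 bp downstream of the first start, near the second RefSeq start 231 bp downstream, read -2.44 with an IgG signal of 9910 and a CREM signal of 1854.

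Taf7l encodes a germ cell relative of TAF7, a subunit of the general transcription factor TFIID, and lies on the X chromosome. Its 24 probes span chrX:131008607-131016455. Before the start, probes at 168 and 360 bp upstream read 1.70 and 1.496, and the probe 960 bp upstream read 1.38. The probes at 168 and 960 bp, with IgG signals of 272 and 60.8, were not well above background in the IgG channel. Further upstream the probes at 1100, 1270 and 1430 bp read -0.38, -0.30 and -1.49. Downstream of the start the 9 probes from 21 bp to 1375 bp downstream were all below 0, from -0.40 to -1.80. The lowest window (chrX:131009632-131009973, probes -1.59 to -0.88) had a value of -1.51, and 4 windows were at -1 or less. With normexp background correction the lowest window was -0.84 and was not called. Further downstream, from 2116 bp, the ratio was high again, and the highest window (chrX:131008607-131008942, probes 0.78 to 1.87) had a value of 1.51. None of its probes was well above background in the IgG channel, and their CREM signals of 352, 222 and 216 were all below the array's CREM median of 781. A filter for probes well above background in both channels therefore left out this window. The highest window of Taf7l was then -0.31, at chrX:131012100-131012489, upstream of the start. With normexp the highest window of Taf7l was 0.54. Neither setting gave Taf7l a called window on the CREM side. The window at chrX:131010986-131011419, on the promoter side, had a value of 1.496. It combined a probe of -1.20 at the start with those of 1.70 and 1.496, so it spans the change of sign.

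Camk4 encodes a kinase activated by calcium and calmodulin that can phosphorylate CREB-family factors. Its 35 used probes span chr18:33094006-33101490. The highest window (chr18:33097067-33097464) was 0.75, from probes of 0.51 to 0.76, all well above background in the IgG channel, and it was not called. Of all genes, 51.3% had a higher highest window. A single probe (chr18:33094160-33094213) read 1.47, with an IgG signal of 676 and a CREM signal of 1904. The IgG-side window (chr18:33098649-33099151) had a value of -1.29 from probes of -0.93, -1.40 and -1.29, at GC contents of 60.0%, 71.1% and 53.3%. It was -0.90 with the authors' deposited values and -0.57 with normexp, and was called under neither.

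Ybx2 encodes a Y-box protein that binds and stores mRNA in spermatids. Its 27 probes span chr11:69744693-69751980. The highest window (chr11:69748108-69748591) had a value of 1.496, from probes of 1.39, 2.30 and 1.496 at 1264, 1012 and 840 bp upstream of the first RefSeq start. Only 1 of these 3 probes was well above background in the IgG channel. With the authors' deposited values the highest window of Ybx2 was 0.97 and was not called. Nearer the start the ratio fell to -2.25, -1.10 and -2.78 at 354, 216 and 94 bp upstream. The window of these probes (chr11:69749025-69749329), at -2.25, was the lowest of the group, and 1.64% of all genes had a lower one. In both channels all 3 were well above background, with IgG signals of 1918, 4956 and 3695 against CREM signals of 409, 2335 and 545. A second CREM-side window lay downstream of the start (chr11:69750013-69750637), at 1.01, with probes of 1.40, 1.01 and 0.79, none of them dim in either channel.

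**Figure D2:**
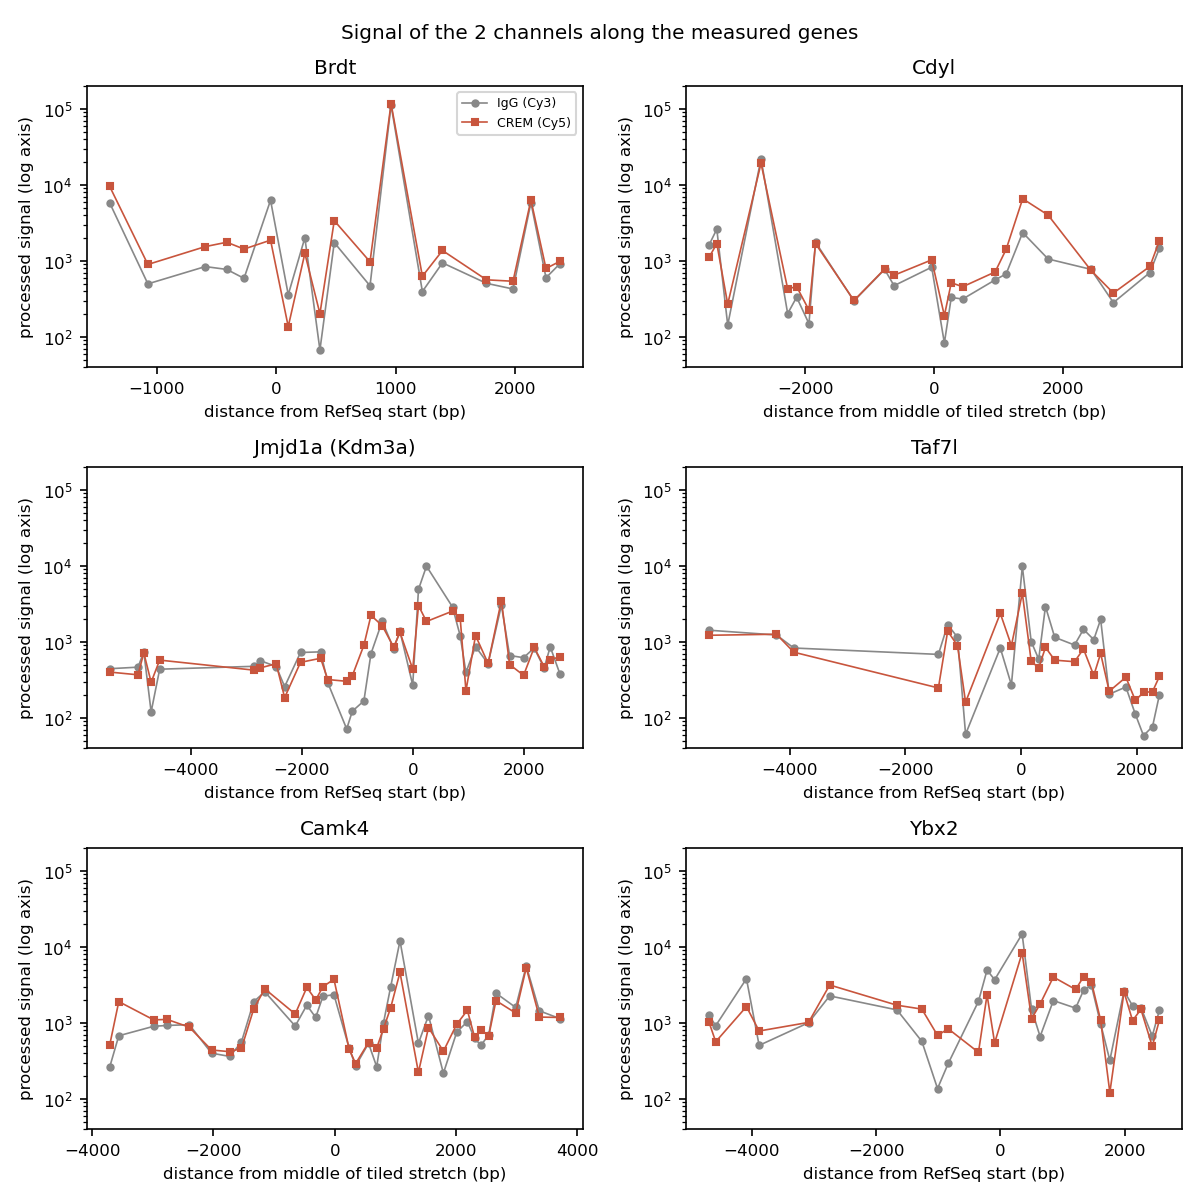
Processed signal of the IgG (Cy3, grey circles) and CREM (Cy5, red squares) channels at every used probe, on a log axis, against distance in bp as in the plot of ratios by locus. In the highest window of Cdyl the CREM signal reaches 6565 over an IgG signal of 2356, whereas at the upstream window of Jmjd1a the CREM signals of 903, 359 and 303 stand over IgG signals of 167, 122 and 71.5.

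Around the start, 4 genes with a RefSeq start placed on probe positions (Brdt, Jmjd1a, Taf7l and Ybx2) could be laid over each other. From 1500 to 500 bp upstream, 8 of their 15 probes were at 1 or more, 4 of 5 in Jmjd1a, 3 of 3 in Ybx2, 1 of 4 in Taf7l and 0 of 3 in Brdt. Over all genes with a placed start, 15% of 33940 probes in that stretch were at 1 or more. At -1 or less there were 1 of the 15 and 2.89% of all. Within 200 bp of the start, 4 of their 8 probes were at -1 or less, against 27% of 21895 probes of all genes, and 1 of 8 was at 1 or more, against 9.36%. These stretches were chosen with the values seen. Medians moved the same way in all genes, from 0.19 upstream to -0.39 around the start, against 1.38 and -1.04 in the 4 genes. Of the 15 upstream probes, 6 had an IgG signal not well above background, and all 6 were among the 8 at 1 or more. Over all genes with a placed start, 7079 of the 33940 upstream probes were dim in IgG.

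**Figure D3:**
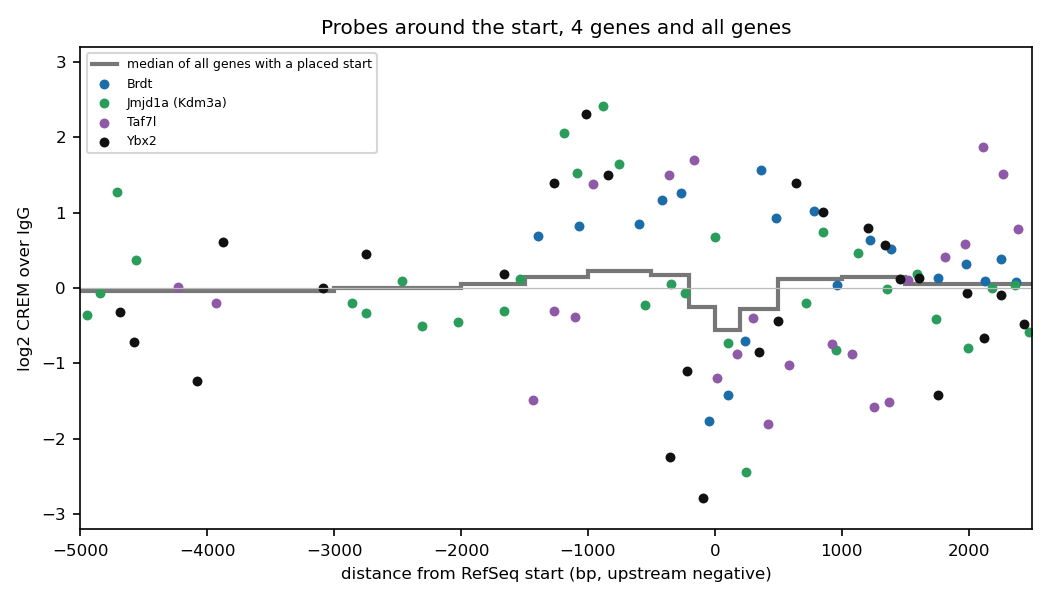
Log2 CREM over IgG at probes of Brdt, Jmjd1a, Taf7l and Ybx2 (coloured points) against distance in bp from the RefSeq start, from -5000 bp to 2500 bp, with the median over all genes with a placed start as a grey step line. The 4 genes have a median of 1.38 from 1500 to 500 bp upstream and of -1.04 within 200 bp of the start, where the grey line is also below 0.

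GC content and the ratio moved together. Over the 162 probes of the 6 genes the correlation of log2 ratio with GC content was -0.56, given as a description over probes that share loci, arrays and signal range. Over all probes it was -0.43 on array 1 and -0.39 on array 2. The 25 probes at 1 or more (15.4% of 162, against 9.45% of all probes) had a median GC content of 36.7% (range 26.7% to 45.1%) and a median of 0 CG dinucleotides. The 16 probes at -1 or less (9.88%, against 6.52%) had a median GC content of 60.0% (36.7% to 73.3%) and a median of 3. Of 31 probes with at least 50% GC, 28 were below 0, against 82.3% of all such probes, and of 131 probes under 50% GC, 43 were below 0, against 43.9%. By locus the correlation ran from -0.71 at Taf7l to 0.12 at Cdyl. After removal of the GC trend, the upstream median of the 4 genes was 1.25, and the median within 200 bp of the start was -0.23. The highest window of Jmjd1a was then 1.97, and the lowest window of Taf7l was -0.52. The lowest window of Camk4 was then -0.41, at another stretch of the locus. Probes of the IgG-side window of Camk4 (chr18:33098649-33099151) were then -0.29, -0.02 and -1.02. The lowest windows of Brdt and Ybx2 remained below -1, at -1.07 and -1.42.

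**Figure D4:**
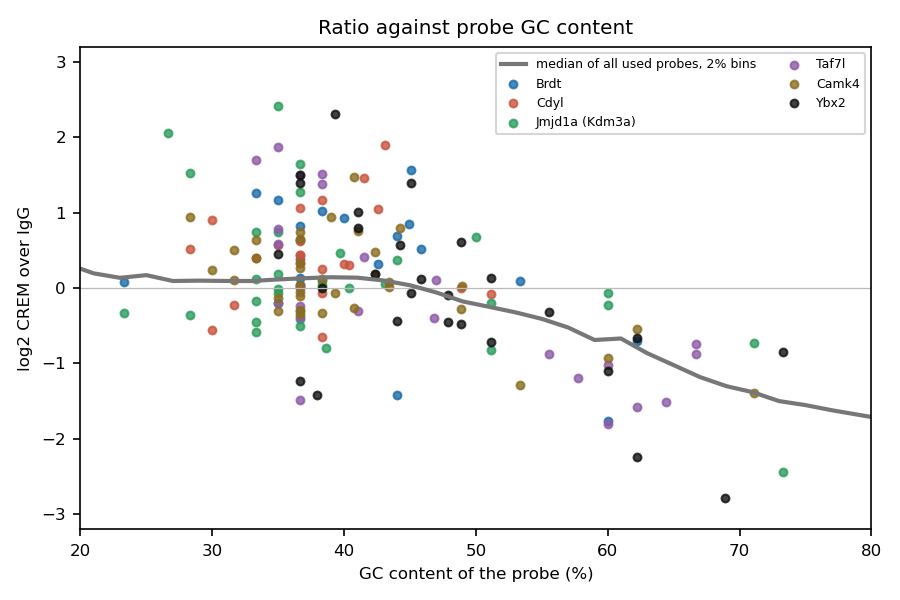
Log2 CREM over IgG at the 162 used probes (points, coloured by gene) against the GC content of the probe in percent, with the median of all used probes in 2% bins as a grey line. Of the 31 probes with at least 50% GC, 28 lie below 0.

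The channels of the extreme probes differed. Among the 25 probes at 1 or more, the median IgG signal was 292 and the median CREM signal 903, and 13 were not well above background in the IgG channel. Among the 16 at -1 or less, the medians were 2446 for IgG and 639 for CREM, and all 16 were well above background in IgG. The 121 probes between had medians of 861 and 845. Probes at 1 or more thus had an IgG median below that of the probes between, and those at -1 or less had an IgG median above it, while the CREM medians differed less. IgG signal is the denominator of the ratio that formed these groups, so a difference of this direction is partly built in. The same medians over all probes are not given here, so the pattern cannot be called particular to these genes. With probes well above background in both channels alone, 3 of the 6 genes were called on the CREM side (Brdt at 1.24, Cdyl at 1.53 and Ybx2 at 1.08), against 20.8% of all genes. Brdt and Cdyl kept their window, whereas the Ybx2 value came from downstream of the start (chr11:69749877-69750278) since 2 of the 3 probes of its upstream window were left out.

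CREM binds the cAMP response element, whose core is TGACG and whose full palindrome, which contains that core on each strand, is TGACGTCA. Both strands of each probe were searched. The core was in 3 of 162 probes (1.85%, 95% Wilson interval 0.632% to 5.30%, counting error only), against 2.08% of all probes. It was in 0 of 25 probes at 1 or more (all probes at 1 or more, 2.56%) and in 0 of 16 at -1 or less (5.00%). The full element was in 0 of 162 probes, against 0.0570% of all. The core is shown here in capitals, in 25 bases around it, for 2 of the 3 probes. Their ratios were 0.31 at Cdyl and -0.88 at Taf7l. The third, in Camk4, read -0.26.
Cdyl chr13:35753591-35753615, plus strand: aggtagatggTGACGtgaaactaca
Taf7l chrX:131009938-131009962, plus strand: aactgtcgccTGACGaggccacctc

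In the RefSeq promoters of 8 of the 9 genes (250 bases before to 50 after the start), the core was in 2 of 14 promoters of the group, both of Chd5 with starts 3 bases apart, against 20.8% of 32851 promoters, and the full element was in 0, against 1.79%. The AP-1 element, searched as TGANTCA with any base at N, of like length and known for other leucine zipper factors, was in 5 of the 14 promoters (35.7%), against 7.81% of all. These belong to 4 of the 8 genes (Brdt, Kdm3a, Cdyl and Taf7l), against 8.97% of all genes in the table. Among probes it was in 6 of 162 (3.70%), against 1.80% of all. It was in 1 of 25 probes at 1 or more (all probes at 1 or more, 1.88%) and in 2 of 16 at -1 or less (1.03%). Where no match was found, it is known only that these letters are absent from the stretch searched.

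The paralogs and complex partners of the 9 genes gave 84 measured genes of 95 listed. Of these, 42 (50%) were called on the CREM side, against 34.5% of all genes. On the IgG side the count was also 42, against 33.7%, and 25 were called on both, against 12.1% of all genes. The relatives had from 3 to 72 windows each, and these shares of all genes were not matched for number of windows. The median highest window of the relatives was 1.01 and the median lowest -0.99, against 0.77 and -0.76 for all genes. Among TFIID subunits and related factors, relatives of TAF7L, 5 of 13 were called on the CREM side. Taf11 (highest window 2.78), Taf13 (2.56) and Taf7 (2.102) led them, and Taf9 had the lowest window of all the relatives at -2.74. The kinase group around CAMK4 had 4 of 12 called for CREM and 8 of 12 for IgG. Calm3, which encodes calmodulin, had a highest window of 2.52, and Camk2b had a lowest window of -2.31.

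In the remaining groups, counts on the CREM side were 2 of 3 BET genes, 4 of 7 CHD remodelers, 3 of 5 partners of CDYL, 3 of 5 NURF and related genes, 7 of 13 JmjC and other demethylases, 8 of 15 polyadenylation factors and 6 of 11 mRNA storage genes. The highest of each was Brd2 (1.55), Chd4 (1.54), Rest (1.27), Rbbp7 (1.49), Kdm2b (2.22), Cstf3 (1.84) and Piwil1 (1.44). On the IgG side Chd1 reached -2.30 and Rbbp7 -2.07. The window of Kdm2b had no probe well above background in the IgG channel, as at Jmjd1a.

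**Figure D5:**
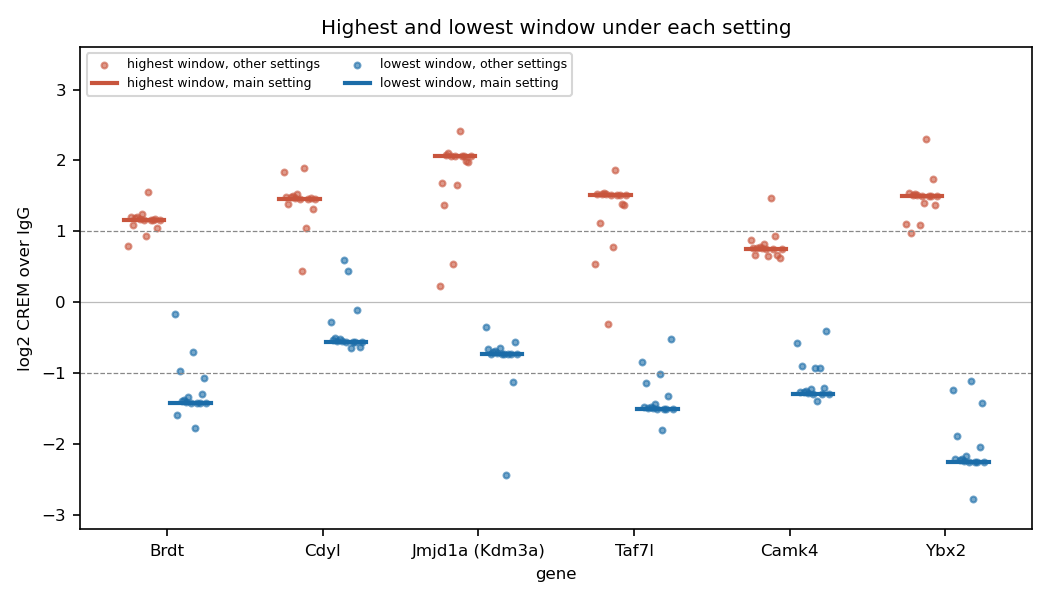
Highest (red) and lowest (blue) window of each of the 6 genes in log2 CREM over IgG under the main setting (bars) and the other settings (points), with dashed lines at 1 and -1. The position of a highest or lowest window can differ between settings. The lowest window of Ybx2 stays below -1 under each setting plotted. The highest window of Taf7l reaches -0.31 when probes must be well above background in both channels. That value is from another stretch, since the probes of the main window were left out.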

How the data were processed

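The values came from 2 arrays, 1 sample each, read with Agilent Feature Extraction 10.7.1.1 on mouse build mm9 (NCBI build 37), per the file headers. The deposited intensity columns are processed signals, background-subtracted and dye-normalised per the file headers, and mean signals with local background. The deposited LogRatio is log10 of Cy5 over Cy3, per the file headers, and flag columns mark saturated, outlier and well-above-background spots, per the file headers. The authors' deposited log2 table equals limma loess of the background-subtracted signals in file order (r = 1). R 2.10.1 and limma appear in the submitters' processing notes.

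Here log2 ratios of the processed signals were centred on each array's median (shifts of 0.02 on both). Removing controls, spots marked as outliers, probes that had no position and those dim in each of the 2 channels left 228277 probes on array 1 and 226404 on array 2. Gene names were updated through RefSeq (GRCm38.p6). RefSeq starts were placed where probe letters matched a RefSeq promoter exactly, for 12288 of 32851 promoters. GC trends used 2% bins of at least 50 probes. Python 3.11.15, R 4.3.3 and limma 3.58.1 were used, and the window script was tested on simulated data. In total 17 other settings were tried. Named genes were all members, the highest relative of each group and any relative at 2 or more or at -2 or less. The members and lists were chosen with earlier results of these data known. No genome sequence of mm9 was used here, so exons, introns and UTRs are not stated.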

Additional observations from a re-analysis of the deposited data

How the results depend on the processing

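Of 180 values of highest and lowest windows under 15 settings that can change them (the 2 other thresholds cannot), 133 moved by less than the median SD of a control spot. Of the rest, 3 values changed sign, each taken from another window than under the main setting. The highest window of Taf7l was -0.31 when dim IgG probes were left out. The lowest window of Cdyl, not called, was 0.59 under that both-channel filter and 0.44 with windows of 5 probes. The called stretch of Cdyl holds no window of 5 probes, and the both-channel filter left out the main highest windows of Jmjd1a and Taf7l. The share of all genes called at the same setting is given in brackets. The 5 genes called on the CREM side (34.5%) became 2 with normexp background correction (16.2%), 3 with probes well above background in both channels (20.8%), 2 with windows of 5 probes (19.8%) and 1 at a 4-fold threshold (5.38%). The 4 genes called on the IgG side (33.7%) became 1 with normexp (3.7%), 2 with the authors' deposited values (21.7%), 2 with windows of 5 probes (17.7%), 1 at 4-fold (3.67%) and 2 with the GC trend removed (12.6%). The 42 of 84 relatives called on the CREM side became 21 with normexp, 24 with the authors' deposited values (17.3%), 26 with both-channel probes, 26 with windows of 5 probes, 72 with single probes (74.9%), 66 at 1.5-fold (64.4%) and 5 at 4-fold. The core element was in 3 probes and the full element in 0. The AP-1 element, a different motif counted separately, was in 6. With normexp the highest window of Jmjd1a was 0.23. Ybx2 was called on the IgG side under all 17 settings. IgG signal was not well above background at 28 of the 162 used probes. Before filtering, 77.4% of all probes on array 1 and 78.5% on array 2 were well above background in IgG. The part of dim IgG signal in the CREM-side ratios was not tested. No paired analysis was possible because each array is a single sample.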
